A study of Mus musculus with 2 samples.

Results

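The Sox genes described here are Sox9, Sox8, Sox5, Sox6, Sox4, Sox11 and Sox12, taken by symbol from the authors' deposited comparison of distal with proximal organoid regions. All 7 were among the 13916 protein-coding genes of that table. The organoids were grown for 48 h from limb mesenchymal cells of Slc:ICR mouse embryos in medium with Fgf8b and Wnt3a, so both groups had the same strain, growth factors and age in culture, and they were frozen on day 2. The 5 organoids came from 4 cultures. Photo-isolation chemistry, in which chosen areas of a section are captured with ultraviolet light, gave 5 distal and 5 proximal regions. From the 5 regions of each side 1 library was made. The p-values of the table therefore measure the spread between regions of a shared library, and side and library cannot be told apart.

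Sox proteins are transcription factors that bind DNA through an HMG box and are grouped by its sequence. Sox9, of the SoxE group, is needed for mesenchymal cells to condense and become cartilage, and it acts with Sox5 and Sox6, of the SoxD group, which lack an activating domain of their own and help Sox9 at the enhancers of cartilage matrix genes. Sox8 is a close relative of Sox9. Sox4, Sox11 and Sox12, of the SoxC group, are expressed in many progenitor cells of the embryo, where they support cell survival and organ growth.

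The relation between the 7 genes is shown by the first 60 bases of coding sequence from the most conserved part of the HMG box, copied from GENCODE mouse release M21 on GRCm38, 5′ to 3′ in the direction of the gene. Capitals mark the 30 positions with the same base in all 7 members. The stretch lies in exon 1 of 3 of Sox9 (chr11:112782903-112782962, plus strand) and in exon 1 of 3 of Sox8 (chr17:25570163-25570222, minus strand). In the SoxD genes it lies in exon 13 of 15 of Sox5 (chr6:143841214-143841273, minus strand) and exon 14 of 16 of Sox6 (chr7:115489703-115489762, minus strand). The SoxC genes hold it in their only exon, at chr13:28952782-28952841 for Sox4, chr12:27342199-27342258 for Sox11 and chr2:152397516-152397575 for Sox12, all on the minus strand.
Sox9: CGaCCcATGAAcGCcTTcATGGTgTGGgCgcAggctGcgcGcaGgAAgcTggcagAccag
Sox8: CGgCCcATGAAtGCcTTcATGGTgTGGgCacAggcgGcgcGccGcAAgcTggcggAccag
Sox5: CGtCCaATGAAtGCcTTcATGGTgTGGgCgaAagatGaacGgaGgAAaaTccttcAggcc
Sox6: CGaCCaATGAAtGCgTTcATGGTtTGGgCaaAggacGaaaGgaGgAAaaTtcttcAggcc
Sox4: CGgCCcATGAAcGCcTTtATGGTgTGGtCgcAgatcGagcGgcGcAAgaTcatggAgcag
Sox11: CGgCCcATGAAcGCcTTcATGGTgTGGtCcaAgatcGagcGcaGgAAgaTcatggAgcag
Sox12: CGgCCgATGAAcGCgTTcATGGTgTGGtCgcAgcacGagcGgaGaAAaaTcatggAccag

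Members of the same group shared 50 to 54 of the 60 bases over 5 pairs, and members of different groups shared 36 to 46 over 16 pairs. Sox4 and Sox11 were the closest pair, with 54 shared bases, and Sox9 and Sox8 shared 53. The ends of the transcripts were distinct from those of genes elsewhere in the genome. The last 300 bases of their coding transcripts matched no transcript of such a gene over 200 bases or more at 95% identity. Genes that overlap a member were left out of this search.

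Sox9 and Sox11 were higher in the distal regions, and the other 5 members were not called. A gene was called where the authors' deposited table lists an adjusted p below 0.05, which 136 of all genes (0.977%) met. The 2 called members were both higher in distal, as were 55 of all genes (0.395%). Calls were more frequent among well covered genes. Of the 3757 genes with a mean of at least 10, 1.36% were called higher in distal, and 6 members had such a mean. Of the 142 genes with a mean of at least 100, 10.6% were called higher in distal, and Sox9 and Sox11 were the 2 members with such a mean. The median log2 change was 0.03 over the 7 members and 0.07 over all genes.

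**Figure D1:**
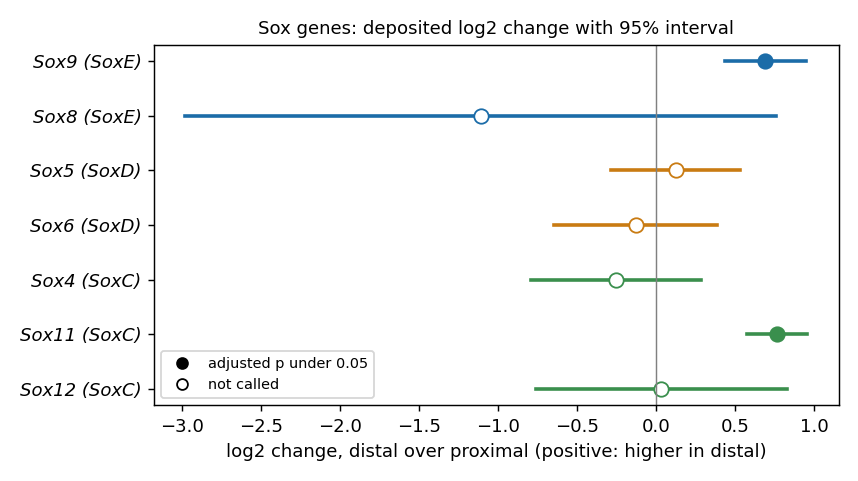
Log2 change of distal over proximal for the 7 Sox genes (x axis) with the 95% interval from the deposited standard error, coloured by Sox group, filled points with an adjusted p under 0.05. The intervals of Sox9 (0.43 to 0.95) and Sox11 (0.57 to 0.96) lie above 0, and those of the other 5 genes hold 0.

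The table gives 1 mean per gene over all 10 regions and no value per region. The level of a gene on each side was therefore computed from its mean and log2 change, in mean normalized counts, and the counts behind it from the summed size factors of the regions. These factors, read from the lowest means, summed to 2.93 in distal and 9.65 in proximal, so the proximal side was 3.30 times deeper. Levels are compared here within a gene only, since they are not corrected for transcript length. In such pooled regions fewer expressing cells and less RNA per cell cannot be told apart.

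Sox9 (chr11:112782224-112787760, plus strand, ENSMUSG00000000567), the SoxE regulator that starts chondrogenesis, had a mean of 682 normalized counts in the authors' deposited table. Its computed level was 842 in distal and 522 in proximal, from about 2466 and 5036 counts. The authors' deposited table puts its log2 change at 0.69 ± 0.13 (SE, adjusted p = 4.7e-05), which is 1.61-fold with a 95% interval from 1.35 to 1.93. Sox9 was thus higher in distal while remaining abundant in proximal.

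Sox8 (chr17:25565892-25570686, minus strand, ENSMUSG00000024176), the other SoxE member, was low enough for its counts to be recovered in each region. The distal regions, from the deepest to the shallowest, held 1, 2, 1, 0 and 0 counts. The proximal regions in the same order held 5, 6, 11, 1 and 5 counts. After division by the size factors the distal values ran from 0 to 2.86 and the proximal values from 0.638 to 5.62, so the sides overlapped. The means were 1.17 ± 1.22 (SD, n = 5 regions) in distal and 2.87 ± 1.83 (SD, n = 5 regions) in proximal. An exact two-sided permutation test over the 5 distal and 5 proximal regions gave p = 0.127. The test treats regions as independent and interchangeable between sides. The regions of a side share 1 library, however, and every distal region was shallower than every proximal one. The counts of Sox8 were also chosen by their closeness to the deposited values. This p is therefore descriptive and cannot separate side from library or depth. The authors' deposited table puts the log2 change of Sox8 at -1.11 ± 0.95 (SE, adjusted p = 0.991). With 4 distal counts in all, its interval ran from -2.98 to 0.76, and a difference was not detectable at this depth.

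The SoxD partners of Sox9 did not pass the test. Sox5 (chr6:143828425-144781977, minus strand, ENSMUSG00000041540) had a mean of 80.0 in the authors' deposited table and computed levels of 83.4 in distal and 76.6 in proximal. Its log2 change there was 0.12 ± 0.21 (SE, adjusted p = 0.991), and its interval ran from -0.29 to 0.53. Sox6 (chr7:115470872-116038796, minus strand, ENSMUSG00000051910), which has overlapping functions with Sox5 in cartilage, had computed levels of 55.1 in distal and 60.3 in proximal. The authors' deposited table lists it at a log2 change of -0.13 ± 0.26 (SE, adjusted p = 0.991). Its interval ran from -0.64 to 0.38. The upper ends of the intervals of Sox5 and Sox6 were 1.44-fold and 1.31-fold, so a rise of the size estimated for Sox9 (1.61-fold) lay outside both.

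Of the SoxC genes, Sox11 (chr12:27334264-27342574, minus strand, ENSMUSG00000063632) was called and its relatives were not. Its mean in the authors' deposited table was 348, and its computed level was 437 in distal and 258 in proximal, from about 1281 and 2487 counts. The authors' deposited table lists it at a log2 change of 0.76 ± 0.10 (SE, adjusted p = 7.57e-12). The change is 1.70-fold with an interval from 1.49 to 1.94. Its unadjusted p in the authors' deposited table ranked 9 among all 13916 genes, and that of Sox9 ranked 41.

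Sox4 (chr13:28948919-28953713, minus strand, ENSMUSG00000076431), the closest relative of Sox11 by the stretch shown above, had computed levels of 55.6 in distal and 66.3 in proximal. The authors' deposited table puts its log2 change at -0.26 ± 0.27 (SE, adjusted p = 0.991). The interval of Sox4 ran from -0.79 to 0.28. Sox12 (chr2:152393611-152398063, minus strand, ENSMUSG00000051817), the third SoxC gene, had computed levels of 10.3 in distal and 10.0 in proximal. The authors' deposited table puts its log2 change at 0.03 ± 0.41 (SE, adjusted p = 0.9998). The sign of Sox12 changed when log2 changes were centred on the median of all genes. It did not change with centring on the median of genes with a mean above the median. The interval of Sox12, from -0.76 to 0.83, holds the change of Sox11.

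The differences between members were set out for 8 pairs, as the difference of the log2 changes with a 95% interval that treats the errors of 2 genes as independent and is not adjusted for the 8 pairs. Sox11 exceeded Sox4 by 1.02 (interval 0.45 to 1.59). Sox9 exceeded Sox5 by 0.57 (0.09 to 1.05) and Sox6 by 0.82 (0.25 to 1.40). The intervals of the other 5 pairs held 0. Among these, Sox11 minus Sox9 was 0.07 (-0.25 to 0.39), Sox9 minus Sox8 was 1.80 (-0.09 to 3.69) and Sox11 minus Sox12 was 0.73 (-0.09 to 1.55). The intervals of the pairs with Sox8 and Sox12 were wide enough to hold both no difference and a difference as large as that between Sox9 and Sox6.

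The promoters of Sox11 and Sox4 are shown because these genes are near relatives whose changes differed by the interval above. RefSeq entries on GRCm38.p6 matched 6 of the 7 members, Sox9 being the one without. The 250 bases before the start are printed 5′ to 3′ in the direction of the gene, at chr12:27342719-27342968 for Sox11 and chr13:28953700-28953949 for Sox4, both on the minus strand. Capitals mark the CCAAT box, CCAAT on either strand, where general activators such as NF-Y bind.
Sox11: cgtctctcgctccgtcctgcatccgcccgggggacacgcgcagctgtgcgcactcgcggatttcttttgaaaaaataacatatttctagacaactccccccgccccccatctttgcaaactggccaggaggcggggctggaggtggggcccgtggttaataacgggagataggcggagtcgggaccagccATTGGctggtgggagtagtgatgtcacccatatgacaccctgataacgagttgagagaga
Sox4: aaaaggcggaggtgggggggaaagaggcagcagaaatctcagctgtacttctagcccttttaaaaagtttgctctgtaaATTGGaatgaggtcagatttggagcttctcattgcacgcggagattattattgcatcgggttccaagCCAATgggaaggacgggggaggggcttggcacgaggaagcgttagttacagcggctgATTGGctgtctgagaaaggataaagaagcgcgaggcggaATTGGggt

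The Sox11 window held 1 CCAAT match and the Sox4 window 4, and 33.9% of the 32851 RefSeq promoter windows of this length held at least 1. The window of Sox12, the SoxC gene with a log2 change of 0.03 and no call, also held 1. The share with at least 1 match is no background for the number of matches. A link between matches and changes was not tested. The SOX core ACAAT, the TCF/LEF core CTTTGA and the TATA box TATAAA, each searched on both strands, had no match in either window. Of all windows, 27.7% held the SOX core, 13.8% the TCF/LEF core and 12.4% the TATA box. CCAAT and ACAAT do not share a match. A match is a stretch of letters and not a measured site.

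The spread between regions differed among the members. A negative binomial model with the computed levels and size factors gives the standard error that counting alone would cause, and the remainder as a coefficient of variation between regions. For Sox11 this coefficient was 9.20%, and 1.96% of the 509 genes with a mean of at least 50 had a lower one. Their median was 13.8% and their quartiles were 11.7% and 16.5%. Sox9 stood at 13.8%, near the median, with 50.7% of the genes lower. Sox5 had 19.5%, Sox6 24.9% and Sox4 26.5%, and 88.8%, 96.5% and 97.4% of the genes were lower. Sox12 and Sox8 have means under 50, and counting made up 55.0% and 69.5% of the variance of their log2 changes, against 7.26% for Sox9. By this split the precision of Sox9 was limited by the spread between regions and that of Sox8 mostly by counting. The split fails for some genes with fewer distal counts, where the counting part exceeded the deposited variance (126% for Sox10 and 146% for Wnt4). The share of Sox8, with 3.75 computed distal counts, is therefore approximate. The coefficients follow the authors' dispersion estimates, and whether these were shrunk towards a common trend is not given in the sources used here.

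**Figure D2:**
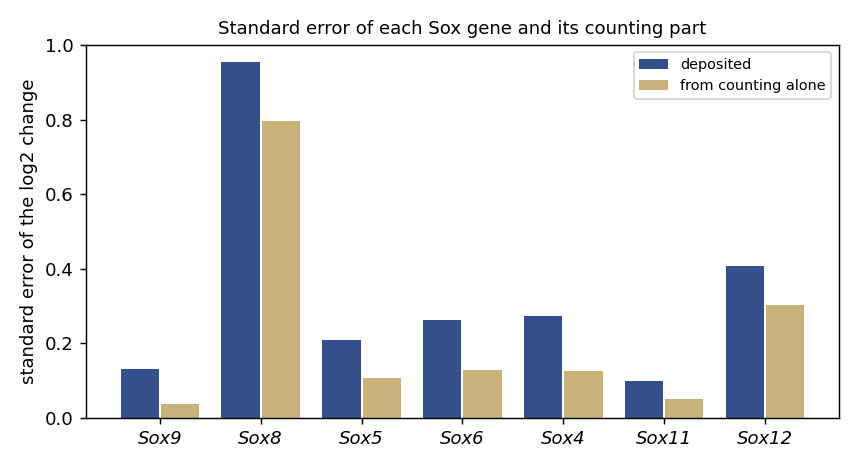
Standard error of the log2 change for each Sox gene (y axis), as deposited (blue) and as counting alone would give (tan). The deposited error of Sox9 is 0.13 against 0.035 from counting, and that of Sox8 is 0.95 against 0.80.

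The rest of the Sox family was close to undetected. Of 13 other Sox genes, 6 were in the table, with means from 0.143 to 1.92 in the authors' deposited table, and 7 (Sry, Sox1, Sox2, Sox3, Sox14, Sox17 and Sox21) were not listed. None of the 6 was called by the authors' test, and 0 had an unadjusted p under 0.05. Sox13, the third SoxD gene, had recovered counts of 2, 3, 1, 0 and 0 in distal and 3, 1, 5, 7 and 3 in proximal. Its normalized means were 1.70 ± 1.80 (SD, n = 5 regions) and 2.14 ± 1.52 (SD, n = 5 regions), with p = 0.651 in the exact two-sided permutation test over regions. Sox10, the SoxE gene of neural crest and Schwann cells, had 9 counts in 4 of the 5 proximal regions and 0 in distal. A distal count of 0 allows up to 3 counts, or a normalized level of 1.02, which is above the proximal mean of 0.881, so no difference was detectable at this depth. The exact permutation test gave Sox10 an unadjusted p of 0.0476, and the Benjamini-Hochberg adjusted p over the 3 genes tested this way (Sox8, Sox13 and Sox10) was 0.190, 0.651 and 0.143. When each region was left out in turn, the adjusted p of Sox10 in this test ran from 0.0476 to 0.286, still with distal at 0 counts. The lowest came without the 1 proximal region that held no Sox10 count, and every other omission gave 0.119 or more. That region stands out by its own value, so the lower p adds no evidence of a difference. The limits of the permutation test given for Sox8, a shared library per side and shallower distal regions, hold for Sox13 and Sox10 too. Sox7 and Sox30 had 1 count each, and Sox15 and Sox18 had 3 each.

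**Figure D3:**
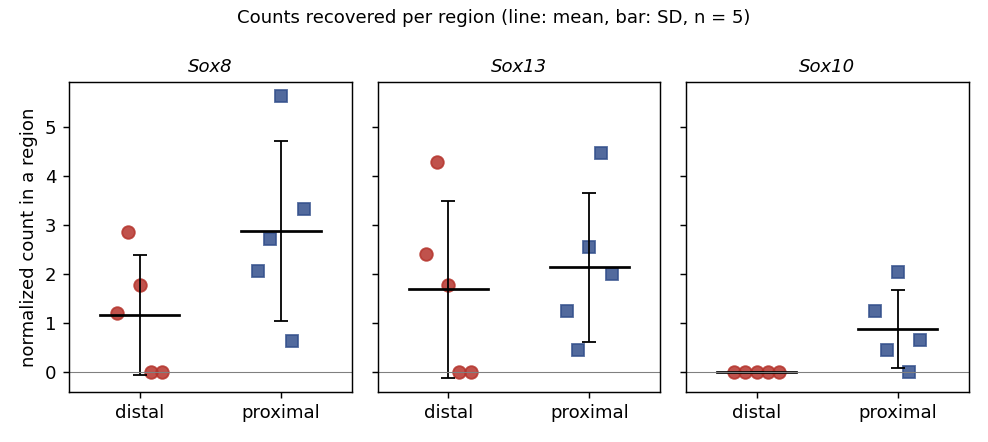
Normalized counts per region recovered for Sox8, Sox13 and Sox10 (y axis), 5 distal regions (red circles) and 5 proximal regions (blue squares), with the mean as a line and the SD as a bar. The distal and proximal regions of Sox8 and Sox13 overlap, and the 5 distal regions of Sox10 are all at 0.

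The cartilage matrix list held genes that the Sox trio is known to activate, and of its 18 genes 14 were in the table. None was called by the authors' test, a share near the 0.977% of all genes. An unadjusted p under 0.05 was met by 3 of the 14, 1 of them higher in distal, and by 6.07% of all genes. Col9a1, a chain of type IX collagen, stood at a log2 change of 0.14 ± 0.20 (SE) in the authors' deposited table. Col2a1, the main collagen of cartilage and a direct target of Sox9, stood at 0.57 ± 0.48 (SE) in the authors' deposited table, from computed levels of 176 in distal and 119 in proximal. The authors' deposited table lists Col9a3, another type IX chain, at a log2 change of -0.07 and Col11a1, of type XI collagen, at -0.18. The 3 with an unadjusted p under 0.05 were the matrix protein gene Matn3 at 1.47 (adjusted p = 0.510), Col9a2 at -0.73 (adjusted p = 0.595) and the aggrecan gene Acan at -1.57 (adjusted p = 0.790), all as log2 changes of the authors' deposited table. Over the 7 genes of the list with a mean of 10 or more the median log2 change was -0.05, against 0.0047 over all genes with such a mean.

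Col2a1 had one of the widest spreads between regions. Its coefficient of variation was 52.0%, and 99.8% of the genes with a mean of at least 50 had a lower one. Its interval, from -0.38 to 1.51, held both 0 and the change of Sox9. Wwp2, a ubiquitin ligase gene known as a target and partner of Sox9, had a coefficient of 48.0%, with 99.6% of the genes lower, and stood at a log2 change of 0.11 ± 0.45 (SE) in the authors' deposited table. The remark on these spreads was made after the values were seen.

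Of 21 listed regulators that work with Sox9 or in the same lineage 17 were in the table. The authors' test called 0 of them, near the 0.977% of all genes, and 3 had an unadjusted p under 0.05, all lower in distal, where 6.07% of all genes had one. Gli3, a transcription factor of hedgehog signalling in the limb, stood at a log2 change of 0.19 ± 0.12 (SE) in the authors' deposited table. Foxc1, a forkhead gene of skeletal mesenchyme, was listed there at 0.06 ± 0.24 (SE). Trps1, a repressor active in cartilage condensations, stood at a log2 change of -0.49 ± 0.15 (SE, adjusted p = 0.117) in the authors' deposited table. Pax9, a paired-box transcription factor gene, and Barx2, a homeobox gene, were listed in the authors' deposited table at log2 changes of -3.79 (adjusted p = 0.0518) and -3.06 (adjusted p = 0.332), with computed distal counts at or under 3. Pax9 was called when p was adjusted over the genes in the table alone. Over the 9 genes of this list with a mean of 10 or more the median log2 change was 0.06.

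The condensation and joint list was the one with calls, and these were higher in proximal, as 0.582% of all genes were. Of its 15 genes 14 were in the table, 3 were called lower in distal and 0 higher. Muscle markers moved the same way, with a summed level of 11.1 in distal and 108 in proximal and 4 of 9 called higher in proximal, and their part in these calls was not tested. Ncam1, a cell adhesion molecule of condensing mesenchyme, had computed levels of 41.1 in distal and 70.7 in proximal and stood at a log2 change of -0.78 ± 0.19 (SE, adjusted p = 0.00640) in the authors' deposited table. Tnc, the matrix protein tenascin C, was listed there at -1.81 ± 0.42 (SE, adjusted p = 0.00350). Wnt4, a ligand expressed at forming joints, stood at 3 counts or fewer in distal. Its computed counts were 1.41 in distal and 65.7 in proximal, a level 14.2-fold lower in distal (adjusted p = 0.0220 in the authors' deposited table). A 95% interval for counting error, from 3.07 to 230, treats these computed counts as if they were observed. It is approximate, since computed counts were checked only from 3 distal counts up. The largest distal error in that check was 1.65 counts, more than the computed 1.41 of Wnt4. Sox10, with 0 recovered distal counts, had 0.694 computed ones. A distal Wnt4 count of 0 is therefore possible, and neither the 14.2-fold nor the upper end of 230 is a firm value. The 2 uncalled genes with an unadjusted p under 0.05 went in opposite directions. The authors' deposited table lists Gdf5, a joint-forming ligand, at a log2 change of -1.07 (adjusted p = 0.460) and Bmp2, a bone morphogenetic protein gene, at 0.71 (adjusted p = 0.544). Over the 10 genes of the list with a mean of 10 or more the median log2 change was -0.20.

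**Figure D4:**
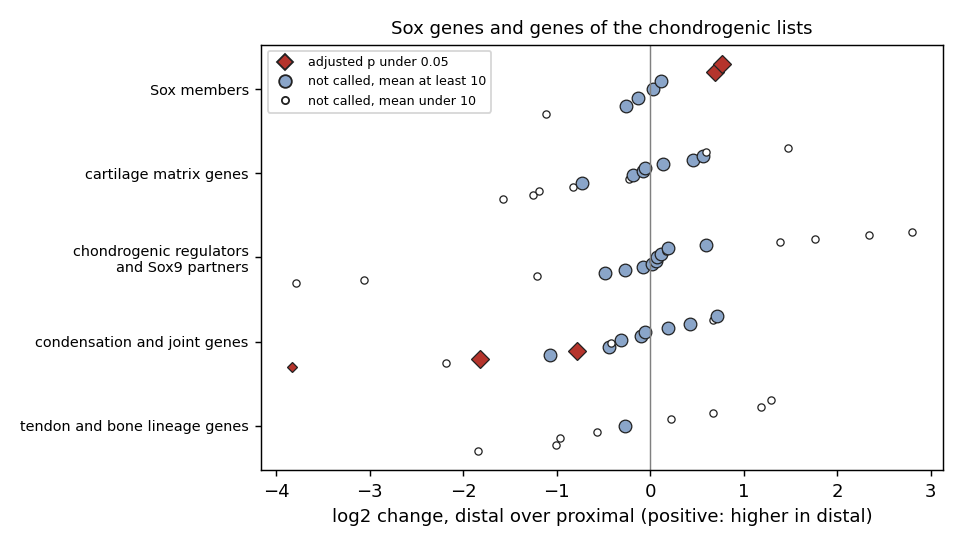
Log2 change of distal over proximal (x axis) for the Sox genes and 4 gene lists, 1 point per gene, red diamonds with an adjusted p under 0.05, large blue circles for other genes with a mean of at least 10 and small open circles for those under 10. The 2 called Sox genes lie at 0.69 and 0.76, and the 3 called condensation and joint genes lie below 0. At the lowest means the sign of a point does not give the side. Tnmd, drawn at 1.19, has the mean of a gene with 1 count in 1 proximal region.

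The genes with the change most like that of Sox9 were taken as the 4 others with a mean of at least 100 and the nearest log2 change. This likeness rests on 1 comparison of 2 libraries. The authors' deposited table lists Tcf7l2, a nuclear effector of Wnt signalling, at a log2 change of 0.69 (adjusted p = 0.000848) and the ribosomal protein gene Rpl37 at 0.71 (adjusted p = 3.59e-06). It lists the cyclin gene Ccnd2 at 0.73 (adjusted p = 1.85e-05) and the chromatin protein gene Hmgb1 at 0.65 (adjusted p = 0.0162). Hmgb1 has near-identical copies, up to 100% identity, so its value is uncertain. Sox11 was the next gene in this order.

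Limb mesenchyme markers matched the labelled cells. All 8 were in the table, with means of at least 14.7 in the authors' deposited table, and their summed levels were 702 in distal and 624 in proximal. Msx1 and Lhx2 were called higher in distal, listed at 1.12 and 1.02 on the log2 scale of the authors' deposited table, and Pdgfra higher in proximal at -0.86. Muscle markers moved with the side. All 9 were in the table, their summed level was 11.1 in distal and 108 in proximal, and 4 (Actc1, Myl1, Myog and Tnnt1) were called higher in proximal. The satellite cell marker Pax7 had a mean of 0.0827 in the authors' deposited table. The part of these markers in the changes of the Sox genes was not tested.

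Markers of other cell types were near the floor. Of the endothelial markers 6 of 10 were in the table, with summed levels of 2.95 in distal and 0.914 in proximal, and Tek, Tie1, Egfl7 and Sox17 were not listed. Surface ectoderm markers had 4 of 7 in the table, with means from 0.0414 to 0.569, and Krt5, Krt8 and Krt18 were not listed. Krt14 and Cdh1 had the mean of a gene with 1 count in 1 proximal region, yet a deposited log2 change of 1.19. At such counts the log2 change, and a level computed from it, does not give the side. The summed levels of the other lists in this paragraph are therefore uncertain in direction. Of the Schwann and neural crest markers 5 of 6 were in the table, with summed levels of 3.80 and 5.31, and Foxd3 was not listed. Of the blood markers Ptprc alone was in the table, at 0.421 and 0.858, and the 7 others, all of red blood cells, were not listed. No marker of these lists was called by the authors' test, and none had an unadjusted p under 0.05.

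Overlapping genes limit some of these values, because the sources used here do not say whether counting used the strand. In GENCODE M21, Sox5, Sox6, Sox8 and Sox4 each overlap at least 1 gene on the opposite strand, and reads from such a partner could not be told apart without strand. Sox5 also overlaps Gm44068 and Sox5it on its own strand, whose reads strand would not separate. Sox9, Sox11 and Sox12 overlap no other gene.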

How the data were processed

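Distal and proximal regions of limb-mesenchymal organoid sections were compared from the authors' deposited table of 1 line per gene. Per the file headers, the column names follow a DESeq2 results table. The authors deposited the mean as a signal, in normalized counts averaged over all regions. They deposited a log2 change, positive for higher in distal, with its error. The deposited statistic is a score that equals their ratio to within 1.91e-06, and the p-value and adjusted p were deposited as well. The submitters' processing notes name the builds mm10 and GRCm38. The aligner and the counting are not given in the sources used here, and no test across genes was fitted anew. The members, the gene lists and the tests were chosen with earlier results of these data known.

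Size factors of the 10 regions were read from the lowest means, where a gene with 1 count in 1 region repeats on a step shared by at least 20 genes. The table does not name its regions, so the side of a factor was read from genes with 1 and with 2 counts on its step. A factor was put in distal where the deposited log2 change was higher with 2 counts than with 1. It was put in proximal where that change was lower with 2 counts. Region counts of Sox genes with a mean up to 2.03 were recovered as the set of counts whose sum matched the mean within 1.5e-09. For Sox8, 2 sets matched, and the one whose fitted log2 change and standard error lay nearest to the deposited values was kept, with a misfit of 0.0070 against 2.89. For other genes, levels and counts per side were derived from these factors, the mean and the log2 change. Among 355 genes with recovered counts of at least 3 in distal and 5 in proximal, the median error of these counts was 7.91% in distal and 6.72% in proximal. The derivation of side counts and of the coefficient of variation was tested on simulated data. Counting error only is covered by the floor of 3 counts.

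The genes named are the 7 members, listed genes with an adjusted p under 0.05, the 4 uncalled genes with the highest means in the cartilage matrix and regulator lists, and the 4 genes with a mean of at least 100 nearest to Sox9. Other genes were named after their values were seen, and the permutation tests over regions, the coefficients of variation and the differences between members were added then too. Near copies were searched with BLAST 2.17.0 in GENCODE M21 transcripts. The values were computed in Python 3.11.15 with scipy 1.17.1. Alternatives were other thresholds, adjustments, centrings and the recovered counts.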

Additional observations from a re-analysis of the deposited data

How the results depend on the processing

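Sox9 and Sox11 were the called members under all 5 alternatives tried for the number of calls (an adjusted p under 0.01, an unadjusted p under 0.05, adjustment over the genes in the table or over those with a mean of 10 or more, and centring on the median of all genes). With either centring, the log2 change ranged from 0.62 to 0.71 for Sox9 and from 0.70 to 0.78 for Sox11. Of 37 values under an alternative, leaving aside the recovered counts, 35 kept their direction and their side of the threshold, or stayed within 1.5 times for a count. Centring on the median of all genes turned the log2 change of Sox12 from 0.03 to -0.035, since that median was 0.07. The median of genes with a mean above the median was -0.018, and centring on it left Sox12 at 0.050. In the lowest genes, 1 count in 1 region gives a positive deposited log2 change on either side (1.19 for proximal, 2.34 for distal). Their part in the median of all genes was not tested. Adjustment over the genes in the table gave 1 call in the chondrogenic regulator list, Pax9, in place of 0, because fewer features were adjusted over. Recovered counts gave Sox8 a log2 ratio of -1.30, which is no independent check, since the set of counts was chosen by its closeness to the deposited change. No paired analysis was possible because regions are neither named nor numbered in the table. Leaving out each of the 10 recovered regions in turn, an alternative chosen after seeing the data, gave a distal minus proximal difference in normalized counts from -2.26 to -1.02 for Sox8, -1.10 to -0.59 for Sox10 and -1.09 to 0.14 for Sox13. The adjusted p of the exact permutation test ran from 0.0714 to 0.381 for Sox8, 0.0476 to 0.286 for Sox10 and 0.270 to 0.952 for Sox13. The value of 0.14 for Sox13 and the 0.0476 of Sox10 came without the same proximal region. All p-values of this permutation test treat regions that share a library as independent, and the distal regions were shallower, so they are descriptive. Regions of the other members could not be left out. Depth limits Sox8 and Sox12 most, with 4 and about 30.0 distal counts.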

Other observations

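No gene linked to the SoxC group or to tendon and bone was called by the authors' test, and with 0.977% of all genes called, lists of this size are near that background. Of the 4 SoxC-linked genes, Dcx, a microtubule protein of migrating neurons, and Gdf5 had an unadjusted p under 0.05, at log2 changes of -1.01 (adjusted p = 0.499) and -1.07 (adjusted p = 0.460) in the authors' deposited table. Tead2, a transcription factor of Hippo signalling, stood at -0.25 ± 0.33 (SE) in the authors' deposited table, and Tubb3, a neuronal tubulin, stood at 3 counts or fewer on both sides. Of the 12 tendon and bone lineage genes 9 were in the table, with 0 calls and 0 unadjusted p under 0.05. The authors' deposited table lists Scx, a tendon regulator, at -0.57 ± 0.57 (SE) and Dlx5, a regulator of bone formation, at -0.27 ± 0.38 (SE).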
